A study of Mus musculus with 42 samples.

Results

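The livers of mice given TCPOBOP were compared with those of mice given vehicle, all on standard diet. The members were the 12 arrays whose labels name this diet and either agent, 6 of TCPOBOP and 6 of vehicle, out of 42 samples in the series. The mice were C57BL/6 females of 19 weeks on rodent chow, with no genetic change. The vehicle mice received a single intraperitoneal injection of corn oil. The TCPOBOP mice received 3 mg/kg TCPOBOP, a synthetic chlorinated compound, by the same route. All were killed after 24 hours, and RNA came from the left lateral lobe, so hepatocytes and the other cells of the liver were measured together. In such bulk RNA, fewer cells of a type and less RNA per cell cannot be told apart. RNA from every liver carried Cy3 and was hybridized with a Cy5-labelled reference, a mixture of the study's RNA samples, to a 2-colour Steroltalk cDNA array. Every level given here is therefore the log2 ratio of a liver to this pool, and a level of 0 only means equal to the pool. The array carried 284 mouse probes for 277 genes, chosen by its makers around sterol, lipid, drug and glucose metabolism. The mice of a group were separate animals, each on 1 array.

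TCPOBOP activates the mouse constitutive androstane receptor (CAR), encoded by Nr1i3. CAR is a nuclear receptor of hepatocytes that moves into the nucleus when such compounds are present, pairs with the retinoid X receptor and binds response elements near genes of drug metabolism. The classical targets are cytochrome P450s of the Cyp2b and Cyp3a families, which oxidise foreign compounds, and transporters that carry the products out of the cell. The comparison asks how the liver transcripts of lipid, drug and glucose metabolism differ after TCPOBOP. All 12 arrays came from mice that have the receptor, so its part in each change was not tested.

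The median signal of the liver channel lay between 226 and 393 on these 12 arrays, and 62.0% to 79.6% of the mouse probes were above background, meaning over the local background by more than 2 SDs on most spots of the probe. Across genes, Pearson's r was 0.60 to 0.85 between vehicle arrays and 0.55 to 0.92 between TCPOBOP arrays. Between a TCPOBOP and a vehicle array it was -0.59 to -0.14, and 26 of 36 such pairs lay under -0.3, while the spiked control RNAs ran the same way on all arrays (r of at least 0.994). The labels give the same dyes for all arrays, and the directions follow them. The scanner output stored spot positions in micrometres for mice 1 and 2 of both groups and in millimetres for mice 3 to 6. With group and set in one model, 0 of 277 genes differed between these sets by limma (17 at an unadjusted p under 0.05), and the group contrast passed the test for 33 genes within the micrometre mice and for 82 within the millimetre mice. Of 8 hepatocyte markers on the array, all above background, 0 rose, 2 fell (Fgb and Cyp2e1) and 6 did not pass the test. Of 3 adipocyte markers, Lep was below background on all 12 arrays, Retn was above it on 3, and Adipoq, a hormone of fat cells, fell by 0.12 on the log2 scale (standard error, SE, 0.04, adjusted p = 0.039 from limma), a call lost in 16 alternatives, among them no background correction, median centring, loess on the spikes and either set of mice. Its part in the results was not tested. Actb, a reference gene of the cytoskeleton, rose by 0.63 (SE 0.20, adjusted p = 0.0162 from limma), with vehicle mice from -1.40 to -0.04 and TCPOBOP mice from -0.41 to 0.32, a call that was lost within either set of mice. Of 4 reference genes 2 rose (Actb and Ppia) and 2 did not pass the test (Gapdh and Tbp). Ppia had vehicle mice from -0.22 to -0.01 and TCPOBOP mice from 0.08 to 0.40. Its call was lost in 5 alternatives, among them median centring and either set of mice.

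TCPOBOP changed 120 of the 277 genes, or 43.3%, at an adjusted p under 0.05 from limma, with 61 genes higher (22%) and 59 lower (21.3%). The 6 TCPOBOP mice lay beyond all 6 vehicle mice for 71 genes (25.6%), 40 of them higher (14.4%) and 31 lower (11.2%). By fitted fold change, the largest rises were those of Cyp2b10, Cyp2b13, Cyp2b9 and Apoa4, and the largest falls those of Saa2, Saa1, Ppp1r3c and Saa3. The falls of the Saa genes had much larger standard errors (0.70 to 0.74) than that of Ppp1r3c (0.18). Each standard error rests on a spread pooled over the 23 arrays of both diets. For the Saa genes, the TCPOBOP mice differed among themselves more than the vehicle mice did, which a pooled spread does not show. The spread between mice was in general a little wider under TCPOBOP, with a median SD of 0.135 against 0.116 under vehicle, and the SD was larger under TCPOBOP for 174 of the 277 genes.

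**Figure D1:**
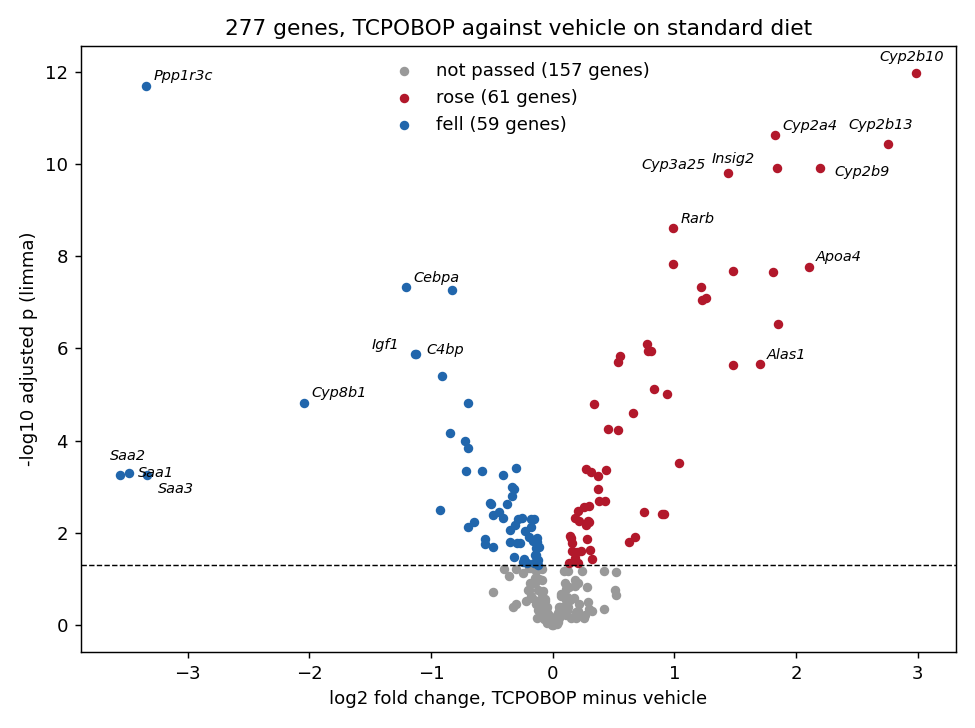
Each point is 1 of 277 genes, with the log2 fold change (TCPOBOP minus vehicle, 6 mice each) on the x axis and -log10 of the adjusted p from limma on the y axis. The dashed line marks an adjusted p of 0.05, and 61 genes that rose and 59 that fell lie above it, with the Saa genes far to the left at a modest height.

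The Cyp2b genes gave the clearest response, and all 3 on the array rose. In vehicle mice Cyp2b10, the P450 most used to read CAR activity, had levels from -1.75 to -1.42 (median -1.51), and in TCPOBOP mice from 1.28 to 1.71 (median 1.39). No mouse of either group came near the other group. This amounted to a log2 fold change of 2.98 (SE 0.15), or 7.9-fold (adjusted p = 1.1e-12 from limma). All folds here are those of array ratios. The study's own RT-PCR on this diet gave a far larger rise of Cyp2b10, and the cause of that gap was not tested. Cyp2b13 ran from -1.47 to -1.13 (median -1.33) under vehicle and from 1.26 to 1.73 (median 1.42) under TCPOBOP, a 6.76-fold rise. Cyp2b9 ran from -1.15 to -0.61 (median -0.90) and from 1.15 to 1.51 (median 1.27), a 4.59-fold rise. TCPOBOP mouse 5 had the highest level of all 3 genes. These genes lie side by side on chromosome 7 and are close in sequence, so their cDNA probes may bind each other's transcripts, and the 3 values need not be independent. Their promoters, as RefSeq gives them for GRCm38.p6, are shown 5′ to 3′ because these genes had the largest rises. Each covers 250 bases before the transcription start and 50 bases from it, at chr7:25897408-25897707 for Cyp2b10, chr7:26173159-26173458 for Cyp2b9 and chr7:26061245-26061544 for Cyp2b13, all on the plus strand. Capitals mark 2 motifs searched on both strands, TTGCNNAA, a core bound by C/EBP factors, and AGGTCA, the hexamer that many nuclear receptors bind.
Cyp2b10: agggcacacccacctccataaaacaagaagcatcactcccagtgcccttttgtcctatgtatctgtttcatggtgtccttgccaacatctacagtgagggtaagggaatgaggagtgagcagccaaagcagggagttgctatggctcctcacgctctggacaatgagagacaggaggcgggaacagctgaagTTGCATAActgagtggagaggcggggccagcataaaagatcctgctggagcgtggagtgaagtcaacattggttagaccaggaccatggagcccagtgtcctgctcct
Cyp2b9: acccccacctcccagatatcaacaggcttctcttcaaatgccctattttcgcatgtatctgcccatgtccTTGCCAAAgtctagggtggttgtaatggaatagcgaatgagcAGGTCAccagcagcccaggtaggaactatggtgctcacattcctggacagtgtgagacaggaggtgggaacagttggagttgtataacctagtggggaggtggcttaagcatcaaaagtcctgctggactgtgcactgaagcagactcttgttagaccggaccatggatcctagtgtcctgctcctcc
Cyp2b13: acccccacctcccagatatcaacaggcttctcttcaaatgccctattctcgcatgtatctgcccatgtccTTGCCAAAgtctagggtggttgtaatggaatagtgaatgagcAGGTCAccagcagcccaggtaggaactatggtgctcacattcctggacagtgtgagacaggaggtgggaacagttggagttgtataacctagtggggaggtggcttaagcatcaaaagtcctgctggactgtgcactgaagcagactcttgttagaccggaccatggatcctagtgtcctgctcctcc
The windows of Cyp2b9 and Cyp2b13 were identical at 99.3% of aligned positions, and both held AGGTCA from -138 to -133 of the start and TTGCCAAA from -180 to -173. The window of Cyp2b10 was 73.2% identical to either, had TTGCATAA from -58 to -51, and held no AGGTCA. TTGCNNAA was in 10.8% and AGGTCA in 16.3% of the 32851 promoter windows of the table. AGGTCA repeated on one strand after 4 free bases was in 5 of them (0.0152%), and in none of the windows of the array's genes. The known CAR element of Cyp2b10 lies further upstream than these windows reach, and a match is a description of letters, not of a bound site.

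All 4 Cyp3a genes rose as well, by smaller amounts than the Cyp2b genes, with a median log2 fold change of 1.13 beside -0.01 over all 277 genes. Cyp3a25 had levels of -0.61 to -0.25 (median -0.42) in vehicle mice and 0.90 to 1.20 (median 0.97) in TCPOBOP mice, a 2.72-fold rise (adjusted p = 1.56e-10 from limma). Cyp3a13 had -0.32 to -0.02 (median -0.25) and 0.66 to 1.39 (median 1.05), a 2.34-fold rise. Cyp3a11, the main drug-oxidising Cyp3a of mouse liver and also a target of the pregnane X receptor, had -1.06 to -0.57 (median -0.73) and -0.02 to 0.51 (median 0.28). Its rise was 2.06-fold on the array (adjusted p = 0.000305 from limma). For this gene too the study's RT-PCR gave a larger rise. Cyp3a41a, a form found mainly in females, rose 1.88-fold, from -0.80 to -0.25 (median -0.56) to 0.03 to 0.70 (median 0.35). The groups did not overlap for any of the 4, although their probes too may bind related transcripts. Within the 2 mice per group whose spot positions were stored in micrometres, Cyp3a11 had a log2 fold change of 1.07 and Cyp3a41a of 0.86, but neither passed the test there (adjusted p = 0.0519 and 0.167).

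Of the other P450s, Cyp1a2 and Cyp2a4 had larger fitted rises on this array than any Cyp3a gene, and these differences between genes were not tested. Cyp1a2, which oxidises caffeine and aromatic amines, had levels of -1.0 to -0.58 (median -0.85) under vehicle and 0.56 to 1.54 (median 0.93) under TCPOBOP, a 3.5-fold rise (adjusted p = 2.24e-08 from limma). Its relative Cyp1a1, known as a target of the aryl hydrocarbon receptor, was above background on 0 of 6 vehicle and 2 of 6 TCPOBOP arrays. Its values overlapped between the groups (-0.18 to 0.20 and 0.19 to 0.49), and although it passed the test (adjusted p = 0.00283 from limma), the vehicle arrays give only a bound and no fold can be stated. Loess on the spikes (fitted on the added control RNAs in place of all mouse spots) and median centring ended that call. Cyp2a4, a steroid hydroxylase with a near-identical relative outside the array, ran from -0.70 to -0.20 (median -0.39) and from 1.21 to 1.78 (median 1.37), a 3.55-fold rise. Cyp2a12 rose 1.71-fold, from -0.19 to 0.21 (median -0.02) to 0.52 to 0.91 (median 0.80). Among the 9 genes of the Cyp2a, 2c, 2d, 2e, 2f and 2j families, 2 rose, 2 fell and 5 did not pass the test. The share called was close to that of all genes, and the list median was -0.05. Cyp2e1, which oxidises ethanol and small solvents, was the clearest fall among P450s of drug metabolism. It ran from 0.16 to 0.43 (median 0.29) in vehicle mice and from -0.52 to -0.17 (median -0.45) in TCPOBOP mice, a 1.62-fold fall (adjusted p = 1.51e-05 from limma) with no overlap. Cyp2d22 fell by 0.21 with overlapping groups (adjusted p = 0.0459 from limma), a call lost in 16 alternatives, among them median centring, loess on the spikes and either set of mice. Cyp2c40 had -0.40 (adjusted p = 0.0622). Of the 2 Cyp4 fatty acid hydroxylases, Cyp4b1 and Cyp4f14, neither passed the test.

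**Figure D2:**
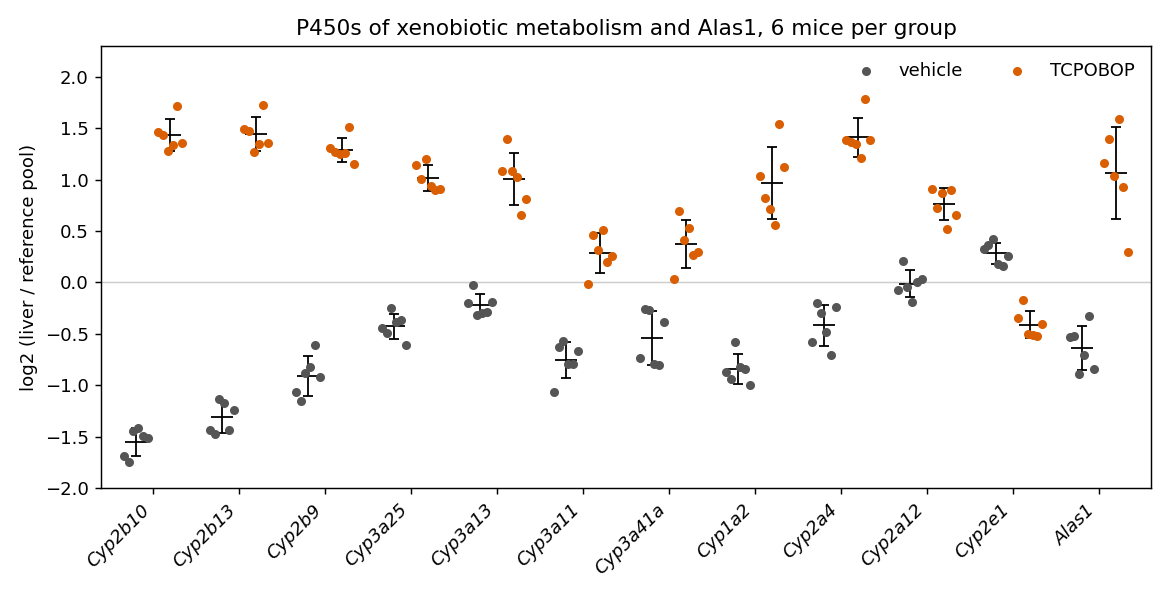
Log2 ratio of liver to reference pool (y axis) of 11 P450 genes and Alas1 (x axis), with a point for each of 6 vehicle and 6 TCPOBOP mice and black bars for the mean and SD of each group. The groups are fully apart for all 12 genes, with TCPOBOP mice higher for all but Cyp2e1, and Alas1 and Cyp1a2 show the widest scatter among TCPOBOP mice. The genes are a selection, and P450s whose groups overlapped, such as Cyp1a1, Cyp2d22 and Cyp2c40, are not drawn.

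Heme, which every P450 carries, is made by a pathway whose first step is catalysed by Alas1. Its levels were -0.89 to -0.33 (median -0.62) in vehicle mice and 0.30 to 1.59 (median 1.09) in TCPOBOP mice. All TCPOBOP mice lay above all vehicle mice, with mouse 6 the lowest and mouse 4 the highest, and the rise was 3.26-fold (adjusted p = 2.24e-06 from limma). Hmox1, which breaks heme down, had a log2 fold change of -0.20 (SE 0.12, adjusted p = 0.175).

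Genes of retinoid and steroid hormone metabolism also stood among the largest rises. Cyp26a1, the P450 that degrades retinoic acid, had levels of -1.04 to -0.59 (median -0.76) under vehicle and 0.21 to 2.00 (median 1.11) under TCPOBOP, a 3.6-fold rise (adjusted p = 3.01e-07 from limma). Its TCPOBOP mice were widely scattered, with mice 1 and 2 lowest (0.72 and 0.21) and mouse 3 highest. Those 2 mice are the ones with positions stored in micrometres, and the log2 fold change was 1.41 within that set and 2.07 within the other. Rarb, a receptor for retinoic acid that retinoic acid itself induces, was above background on 1 of 6 vehicle and 6 of 6 TCPOBOP arrays. Its vehicle mice had levels of -0.75 to -0.33 (median -0.60) and its TCPOBOP mice 0.25 to 0.62 (median 0.43). The groups did not overlap and it passed the test (adjusted p = 2.45e-09 from limma), but no fold is given, since most vehicle arrays did not measure it above background. Rara had a log2 fold change of -0.06 (adjusted p = 0.589). Rarg and Cyp26b1, below background on all 12 arrays, passed the test in the other direction and get no fold. So of 5 retinoid genes 2 rose, 2 fell and 1 did not pass. With Rarg and Cyp26b1 counted, the share called was larger than over all genes (43.3%). Cyp17a1, the steroid 17-hydroxylase and lyase, rose 2.79-fold, with vehicle mice from -0.51 to 0.08 (median -0.29) and TCPOBOP mice from 0.73 to 1.66 (median 1.18). Cyp21a1, the steroid 21-hydroxylase, rose 1.45-fold, with vehicle mice closely grouped from -0.19 to -0.10 and TCPOBOP mice from 0.26 to 0.56. Of 7 genes listed under steroid hormone synthesis 4 rose, 0 fell and 3 did not pass. The list includes the vitamin D hydroxylases Cyp24a1 and Cyp27b1, and its share called was larger than over all genes (43.3%). The other two that rose, Cyp24a1 and Cyp27b1, were below background on most arrays and get no fold, the direction of Cyp24a1 turned in the deposited ratios, and the list's count of rises was 2 without background correction, with median centring or with loess on the spikes.

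The transcript of the receptor itself fell. Nr1i3 had levels of 0.19 to 0.52 (median 0.43) in vehicle mice and -0.57 to 0.08 (median -0.34) in TCPOBOP mice. Every TCPOBOP mouse was below every vehicle mouse, and the fall was 1.64-fold (adjusted p = 0.000462 from limma). Loess on the spikes ended this call (log2 fold change -0.65, adjusted p = 0.0923), as did the 2 mice per group in micrometres (-0.84, adjusted p = 0.0703). Nr1i2, the pregnane X receptor, which shares many targets with CAR, rose 1.24-fold, from -0.19 to 0.01 (median -0.07) to 0.05 to 0.36 (median 0.26). Nr5a2, a receptor active at genes of bile acid synthesis, rose 1.22-fold without overlap, and Rxrb, a partner of CAR, by 0.15 on the log2 scale with overlap. Loess on the spikes ended the calls of Nr5a2 and Rxrb, and that of Rxrb was lost in 7 alternatives. The call of Nr1i2 was lost with the deposited ratios and among the mice in micrometres. Of 20 receptors and partners 5 rose, 3 fell and 12 did not pass the test, a share called close to that of all genes, and the list median was -0.05.

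Genes of the acute phase, the plasma proteins that the liver makes in large amounts during inflammation, were lower or not called. Of 10 on the array 0 rose, 7 fell and 3 did not pass the test, with a median log2 fold change of -0.60. Over all 277 genes, 43.3% were called and 21.3% fell. The deepest falls were those of the serum amyloid A genes, whose products ride on high density lipoprotein. The promoters of Saa1 (chr7:46742931-46743230, minus strand), Saa2 (chr7:46751583-46751882, plus strand) and Saa3 (chr7:46715627-46715926, minus strand) are printed in the same way as those of the Cyp2b genes, because these genes fell furthest and their mice kept the same order.
Saa1: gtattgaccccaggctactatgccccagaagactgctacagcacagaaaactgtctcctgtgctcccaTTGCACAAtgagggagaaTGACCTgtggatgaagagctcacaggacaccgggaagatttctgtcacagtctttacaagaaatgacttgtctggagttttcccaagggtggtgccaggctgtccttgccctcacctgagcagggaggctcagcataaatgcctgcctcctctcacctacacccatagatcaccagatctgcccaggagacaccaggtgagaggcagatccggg
Saa2: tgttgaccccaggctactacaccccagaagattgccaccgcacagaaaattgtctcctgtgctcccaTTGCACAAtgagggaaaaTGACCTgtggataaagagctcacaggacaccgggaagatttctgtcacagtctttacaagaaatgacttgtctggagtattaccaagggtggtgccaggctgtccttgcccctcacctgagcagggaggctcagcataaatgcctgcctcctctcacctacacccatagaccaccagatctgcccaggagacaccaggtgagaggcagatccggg
Saa3: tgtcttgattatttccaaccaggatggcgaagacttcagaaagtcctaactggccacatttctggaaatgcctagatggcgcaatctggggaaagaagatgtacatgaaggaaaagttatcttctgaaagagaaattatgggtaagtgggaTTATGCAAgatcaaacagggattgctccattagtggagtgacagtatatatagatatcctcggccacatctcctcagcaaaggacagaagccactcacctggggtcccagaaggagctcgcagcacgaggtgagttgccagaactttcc
The windows of Saa1 and Saa2 were identical at 95.3% of aligned positions and each held TTGCACAA and, 10 bases further on, TGACCT, the reverse complement of AGGTCA. In Saa1 these lie from -182 to -175 and from -164 to -159. The window of Saa3 was 51.9% identical to that of Saa1 and had the C/EBP core on the other strand, as TTATGCAA from -99 to -92. Counted by gene, with a match in any window of the gene, TTGCNNAA was held by 7 of 9 acute phase and complement genes that fell (77.8%). It was held by 14 of 47 of all genes that fell (29.8%), 11 of 46 that rose (23.9%) and 48 of 209 of the array's genes (23.0%). Only genes with a window were counted, and Saa1 and Saa2 counted separately despite their near-identical windows. The share of 10.8% given above is per window, so it is not on the same basis. These motifs were chosen after the values were seen, and the shares are a description.

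Saa1 had levels of 0.11 to 1.14 (median 0.45) in vehicle mice, and -2.35, -1.38, -3.85, -0.84, -4.36 and -4.87 in TCPOBOP mice 1 to 6. All TCPOBOP mice were below all vehicle mice, but they differed from one another by more than the vehicle mice did, with mice 6, 5 and 3 far below mice 4 and 2. The log2 fold change was -3.48 (SE 0.72), an 11.2-fold fall (adjusted p = 0.000517 from limma). Saa2 had -2.40, -1.40, -4.0, -0.82, -4.40 and -5.00 in TCPOBOP mice 1 to 6 against 0.13 to 1.09 (median 0.50) under vehicle, an 11.7-fold fall. Since Saa1 and Saa2 are nearly identical in sequence, their probes may read the same transcripts. Saa3, a more distant relative also made by macrophages, had -2.17, -0.92, -3.21, -0.29, -4.08 and -4.39 against 0.50 to 1.56 (median 0.74), a 10.0-fold fall, in the same order of mice. Whether its probe also binds transcripts of Saa1 and Saa2 was not tested, so the 3 genes need not be independent. For all 3, the calls were lost among the 2 mice per group in micrometres, where Saa1 had a log2 fold change of -2.25, while the 4 mice per group in millimetres gave -4.10.

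The other acute phase genes fell by much less. Orm1, a carrier of drugs in plasma, had levels of -0.06 to 0.50 (median 0.01) under vehicle and -1.12 to 0.05 (median -0.66) under TCPOBOP, a 1.56-fold fall (adjusted p = 0.0058 from limma) with overlap. Fgb, the beta chain of fibrinogen, had 0.26 to 1.08 (median 0.62) and -0.76 to 0.48 (median 0.11), a 1.62-fold fall. Hpx, which binds free heme, had -0.09 to 0.07 (median 0.02) and -1.23 to 0.10 (median -0.51). Its TCPOBOP mice 2 and 4 lay within or above the vehicle range and mice 5 and 6 far below it (-1.23 and -1.16). It fell by 0.55 (SE 0.18, adjusted p = 0.0178 from limma), and the call was lost without TCPOBOP mouse 5 or without mouse 6. Saa4, which is made constitutively, fell by 0.27. Apcs, the serum amyloid P component, did not pass the test (log2 fold change -0.33, adjusted p = 0.404), yet its mice 5 and 6 were also the lowest (-1.31 and -0.64). Apcs is named because of those values, after they were seen. Alb, the main plasma protein, had -0.30 (adjusted p = 0.0601). Crp, the C-reactive protein, was the only one of the 10 with a positive log2 fold change, 0.21 (SE 0.11, adjusted p = 0.122), with vehicle mice from -0.39 to 0.10 (median -0.24) and TCPOBOP mice from -0.30 to 0.20 (median 0.04). It too is named after its values were seen.

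Most complement genes fell as well. Of 7 genes of complement and its control 0 rose, 6 fell and 1 did not pass the test, with a median of -0.58. This was a larger share of falls than over all genes (21.3%). C4bp, an inhibitor of the classical pathway, had levels of 0.31 to 0.50 (median 0.39) in vehicle mice and -1.11 to -0.48 (median -0.65) in TCPOBOP mice. The groups were far apart, with a 2.18-fold fall (adjusted p = 1.33e-06 from limma). C9, which forms the membrane pore, had -0.71 to -0.08 (median -0.39) and -1.64 to -0.77 (median -1.44), a 1.9-fold fall. C4 had 0.17 to 0.69 (median 0.29) and -0.97 to -0.01 (median -0.29), a 1.65-fold fall. Serping1, the inhibitor of the first component, fell 1.5-fold, C2 1.47-fold and Hc, the fifth component, 1.42-fold. C3, the component on which all pathways meet, had a log2 fold change of 0.04 (SE 0.11, adjusted p = 0.851), with 5 of 6 TCPOBOP mice within the vehicle range or above it and mouse 5 below it. TCPOBOP mouse 5 was the lowest for 4 of the 6 complement genes that fell, and mice 5 and 6 for 3 each of the 7 acute phase genes. Mouse 5 was the furthest from the vehicle mean for 20 of the 59 genes that fell and 15 of the 61 that rose, the most and the second most of the 6 mice. Loess on the spikes left 3 acute phase and 4 complement falls, and the mice in micrometres left 1 of each. Without any 1 mouse, acute phase falls numbered 6 to 8 and complement falls 6. The count of acute phase rises was 1 without vehicle mouse 5 or without TCPOBOP mouse 5, with array weights and at the methods' FDR in limma, and 0 in the other alternatives run for that list.

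**Figure D3:**
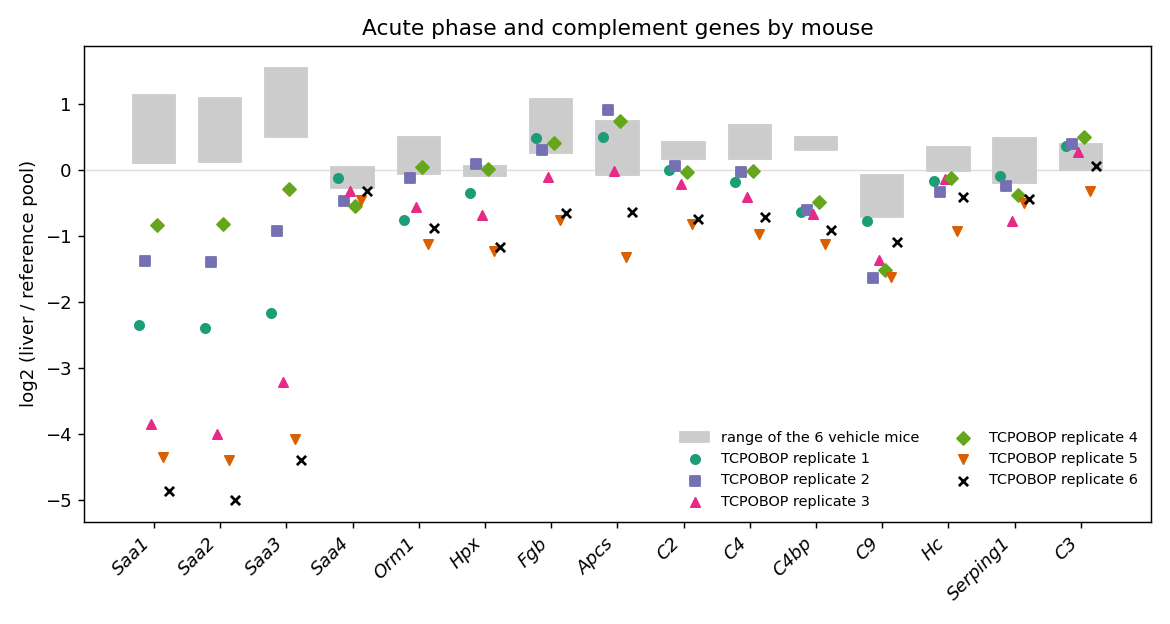
Log2 ratio of liver to reference pool (y axis) of 15 acute phase and complement genes (x axis), with a symbol for each of 6 TCPOBOP mice and a grey bar from the lowest to the highest of 6 vehicle mice. For Saa1, Saa2 and Saa3 the mice keep one order, from mouse 4 (highest) to mouse 6 (lowest), and mice 5 and 6 are also the lowest for Hpx, Fgb, Apcs, C2 and C4.

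Transcripts of cytokine signalling and stress were near background or changed little. Stat3, which carries the signal of interleukins to acute phase genes, had levels of -0.11 to 0.37 (median 0.10) under vehicle and -0.44 to 0.15 (median -0.26) under TCPOBOP, and fell 1.27-fold (adjusted p = 0.00888 from limma) with overlap, a call that loess on the spikes ended. Jak2 passed the test but was above background on only 1 of 12 arrays, and Jak1 had -0.14 (adjusted p = 0.0949). Jun, a subunit of the AP-1 factor, was above background on 0 of 6 vehicle and 3 of 6 TCPOBOP arrays. Its TCPOBOP mice (0.10 to 0.43) were all above its vehicle mice (-0.43 to -0.27), and it passed the test (adjusted p = 1.43e-06 from limma) with no fold to state. Mapk8, the kinase that activates Jun, rose by 0.19 without overlap, and loess on the spikes or median centring ended that call. Of 3 cytokine signalling genes 0 rose and 2 fell, a larger share called than over all genes (43.3%). Of 5 stress genes 2 rose and 0 fell, a share called close to that of all genes.

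Ppp1r3c, the subunit that brings protein phosphatase 1 to glycogen and so favours glycogen synthesis, had the lowest adjusted p of the 59 genes that fell. Its vehicle mice had levels of 0.58 to 1.05 (median 0.84) and its TCPOBOP mice -2.87 to -2.22 (median -2.48). Both groups were narrow, and the distance between them was several times either range. The log2 fold change was -3.34 (SE 0.18), a 10.1-fold fall (adjusted p = 2.01e-12 from limma), and it was -3.45 among the mice in micrometres and -3.29 among those in millimetres. Pck1, which controls gluconeogenesis, had -0.22 to 0.52 (median 0.06) and -0.82 to 0.09 (median -0.45), and fell 1.4-fold (adjusted p = 0.0209 from limma) with overlap. That call was lost with median centring, loess on the spikes and the deposited ratios. G6pc, which releases free glucose, had a log2 fold change of -0.49 (SE 0.29, adjusted p = 0.191), with TCPOBOP mice from -1.89 to 0.07. Of 7 genes of gluconeogenesis and glycogen 0 rose, 2 fell and 5 did not pass the test. This was a smaller share called than over all genes (43.3% called, 21.3% lower).

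Of 9 genes of glycolysis, pyruvate and glucose transport 3 rose, 1 fell and 5 did not pass, a share called close to that of all genes, with a median of 0.15. Mlxipl, which encodes the glucose-responsive factor ChREBP, had levels of -0.81 to -0.52 (median -0.58) in vehicle mice and -0.06 to 0.49 (median 0.17) in TCPOBOP mice, a 1.75-fold rise (adjusted p = 1.16e-06 from limma). Pdhb, a subunit of pyruvate dehydrogenase, had -0.31 to -0.15 (median -0.22) and 0.20 to 0.40 (median 0.32), a 1.45-fold rise. The glucose transporter Slc2a1 rose 1.27-fold, from -0.20 to -0.01 (median -0.08) to 0.16 to 0.39 (median 0.22). Slc2a4, the insulin-regulated transporter of muscle and fat, fell by 0.34, with vehicle mice from 0.18 to 0.26 and TCPOBOP mice from -0.26 to 0.02. The groups did not overlap for any of the 4, and mouse 5 was the highest for all 3 that rose. Loess on the spikes ended the calls of Mlxipl, Pdhb and Slc2a4. Of the fatty acid synthesis genes, Fasn had a log2 fold change of 0.52 (adjusted p = 0.0705), with mouse 5 highest at 0.98 and mouse 4 within the vehicle range at -0.22, and Scd1 had 0.26 (SE 0.44, adjusted p = 0.7).

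Among genes of fatty acid oxidation, Ppara and Cpt1a fell. Ppara, the nuclear receptor that drives oxidation during fasting, had levels of -0.80 to -0.01 (median -0.33) under vehicle and -1.34 to -0.86 (median -1.09) under TCPOBOP, a 1.62-fold fall (adjusted p = 0.000142 from limma). Cpt1a, which admits long fatty acids to mitochondria and is a target of Ppara, had 0.10 to 0.83 (median 0.41) and -1.04 to -0.24 (median -0.30), a 1.8-fold fall. Neither overlapped, and mouse 5 was the lowest for both, standing apart from the other mice for Cpt1a.

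Of 9 genes of insulin, growth and adiponectin signalling 1 rose, 3 fell and 5 did not pass the test, a share called close to that of all genes, with a median of -0.03. Igf1, the growth factor that the liver releases under growth hormone, had levels of -0.07 to 0.12 (median 0.03) in vehicle mice and -1.49 to -0.94 (median -1.04) in TCPOBOP mice. No mouse lay between the groups, and the fall was 2.19-fold (adjusted p = 1.33e-06 from limma), with mouse 5 the lowest. Adipor2, the main adiponectin receptor of liver, had 0.04 to 0.29 (median 0.18) and -1.07 to -0.45 (median -0.67), a 1.87-fold fall (adjusted p = 4e-06 from limma). Its relative Adipor1 rose by 0.16 with overlap, and that call was lost with median centring, loess on the spikes and plain background subtraction. Sirt1, a deacetylase that senses the energy state, fell by 0.32 without overlap. Lepr, the leptin receptor, had -0.30 (SE 0.24, adjusted p = 0.346 from limma) and was above background on 4 of 12 arrays. Its TCPOBOP mice (-0.33 to -0.11) were nevertheless all below its vehicle mice (-0.02 to 0.20). It passed the test when only the 2 compared groups were fitted, without the cholesterol diet.

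Cebpa, a factor that maintains the differentiated state of hepatocytes and binds the TTGCNNAA core, showed the largest fall among the liver-enriched factors. It had levels of 0.11 to 0.65 (median 0.29) in vehicle mice and -1.05 to -0.53 (median -0.92) in TCPOBOP mice, a 2.31-fold fall (adjusted p = 4.8e-08 from limma). The groups did not overlap, and mice 1 and 2 were the least lowered. Within the mice in micrometres the log2 fold change was -1.02 (adjusted p = 0.0514). Hnf4a, another such factor, had 0.09 (SE 0.11, adjusted p = 0.593) and Foxa2 -0.19 (adjusted p = 0.125), so of 8 factors 1 rose, 2 fell and 5 did not pass, close to the share of all genes.

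Transcripts of the circadian clock differed by small amounts. Nr1d2, a repressor of the clock loop, had levels of -0.98 to -0.18 (median -0.73) under vehicle and -0.25 to 0.21 (median 0.17) under TCPOBOP, a 1.6-fold rise (adjusted p = 0.0126 from limma) with overlap. Cry1, a repressor of Clock and Arntl, had 0.06 to 0.45 (median 0.16) and -0.51 to 0.13 (median -0.34), a 1.4-fold fall. Arntl, the partner of Clock, fell by 0.30 without overlap, but the call was lost without TCPOBOP mouse 2 (-0.47), the lowest. Clock itself rose by 0.23. Loess on the spikes ended the calls of Nr1d2 and Clock. That of Clock was lost in 10 alternatives, among them no background correction and median centring. Of 11 clock genes 2 rose, 5 fell and 4 did not pass, a larger share called than over all genes (43.3%). Below background on all arrays were 4 of the 11. Among the mice in micrometres 1 rose and 0 fell, and among those in millimetres 1 rose and 1 fell. The hour of death of each mouse was not used here, and its part in these values was not tested.

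Among sterol sensors, Insig2, a membrane protein that keeps SREBP precursors from being processed, had levels of -0.92 to -0.49 (median -0.75) in vehicle mice and 0.87 to 1.28 (median 1.13) in TCPOBOP mice, with the 6 TCPOBOP mice close together. Mbtps1, the protease that makes the first cut of those precursors, had -1.12 to -0.79 (median -0.91) and 0.27 to 0.77 (median 0.60), a 2.79-fold rise (adjusted p = 2.09e-08 from limma). Mbtps2, which makes the next cut, rose by 0.30 in this fit, but had -0.37 (adjusted p = 0.565) in the deposited ratios. Insig1, itself a target of SREBP, had -0.91 to -0.10 (median -0.24) and 0.02 to 0.86 (median 0.46), and was highest in mouse 5 and at 0.02 in both mouse 1 and mouse 6. Of 8 SREBP pathway genes 4 rose, 1 fell and 3 did not pass.

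Apoa4, an apolipoprotein of triglyceride-rich particles, rose next after the Cyp2b genes. Its levels were -1.37 to -0.80 (median -0.99) under vehicle and 0.44 to 1.70 (median 1.09) under TCPOBOP, a 4.31-fold rise (adjusted p = 1.71e-08 from limma). Mouse 4 was the highest and mouse 6 the lowest, as for Alas1. Of 12 genes of lipoproteins and lipases 2 rose, 2 fell and 8 did not pass, a smaller share called than over all genes. The list median was -0.05. In bile acid synthesis, Cyp8b1, the hydroxylase that sets the share of cholic acid, had 0.43 to 1.24 (median 0.64) and -2.58 to -0.27 (median -1.37). All TCPOBOP mice were below all vehicle mice but widely spread, with mouse 1 lowest and mouse 5 nearest to vehicle. Cyp39a1, an oxysterol hydroxylase, had -0.49 to 0.09 (median -0.17) and 0.47 to 1.10 (median 0.86). Slc10a2, the bile acid carrier best known from the ileum, was not above background on any vehicle array and above it on all TCPOBOP arrays, and was at least 1.49-fold higher (adjusted p = 1.16e-06 from limma). Such a bound sets the TCPOBOP mean against the lowest signal above background or the measured one, whichever is higher on each vehicle array. Of 13 transporters of bile acids and xenobiotics 6 rose, 4 fell and 3 did not pass, a larger share called than over all genes (43.3%). Loess on the spikes left 5 rises and 0 falls of these transporters, and the mice in micrometres 3 rises and 0 falls. Without any 1 mouse, 6 rose and 2 to 4 fell.

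Of the 77 genes in none of the lists, 10 rose and 11 fell, a smaller share than over all genes, and 27 of the 77 were below background on all 12 arrays. Pla2g6, a calcium-independent phospholipase A2, stood out among them. It was above background on 0 of 6 vehicle and 6 of 6 TCPOBOP arrays, with levels of -0.50 to -0.19 (median -0.45) and 0.60 to 1.15 (median 0.78). It was at least 1.74-fold higher (adjusted p = 4.8e-08 from limma), and the other 9 that rose did so by less.

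**Figure D4:**
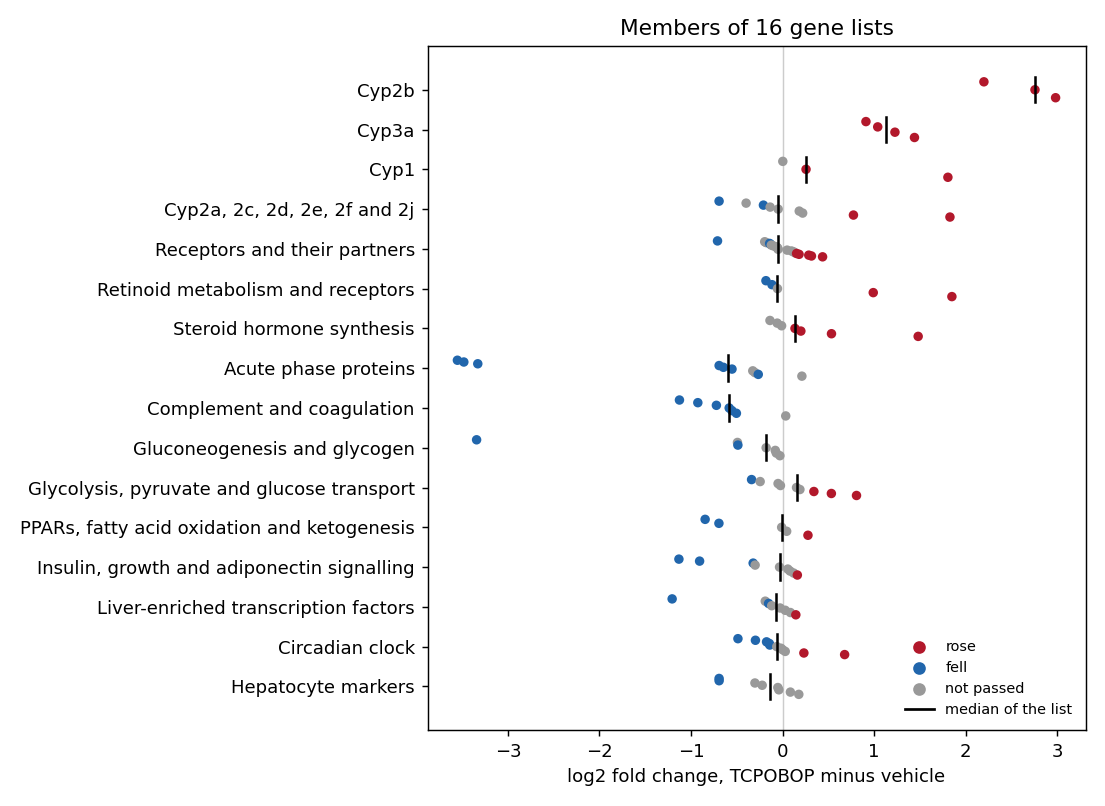
Log2 fold change, TCPOBOP minus vehicle (x axis), of each member of 16 gene lists (y axis), coloured by whether it rose, fell or did not pass the test, with a black bar at the median of each list. The Cyp2b and Cyp3a lists lie wholly above 0, the acute phase and complement lists almost wholly below it, and most other lists straddle 0.

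The same contrast had been made in mice on a diet with 1% cholesterol, where 11 arrays with scanner values were used (TCPOBOP mice of 18 weeks and vehicle mice of 19 weeks). By limma's interaction term, 0 of 277 genes responded differently on the diets at an adjusted p under 0.05 (0%), with 36 at an unadjusted p under 0.05 and 0.0528 as the lowest adjusted p. When genes below background on most arrays were left out, an alternative chosen after seeing the data, 6 passed (adjusted p = 0.0434 for each), among them Apoa4, Abcc3, Cyp2e1, Cyp4f14 and Foxa2. Apoa4 had a log2 fold change of 2.11 on standard and 0.98 on cholesterol diet, and Cyp2e1 of -0.69 and -0.11. Abcc3, an exporter of conjugated drugs and bile acids, had 1.26 and 2.02. Cyp8b1 had -2.04 and -0.52 (adjusted p = 0.0832 for the difference). Genes with near values on the diets were Cyp26a1 (1.85 and 1.85), Cyp2b10 (2.98 and 3.15), Saa1 (-3.48 and -3.13) and Igf1 (-1.13 and -1.35).

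**Figure D5:**
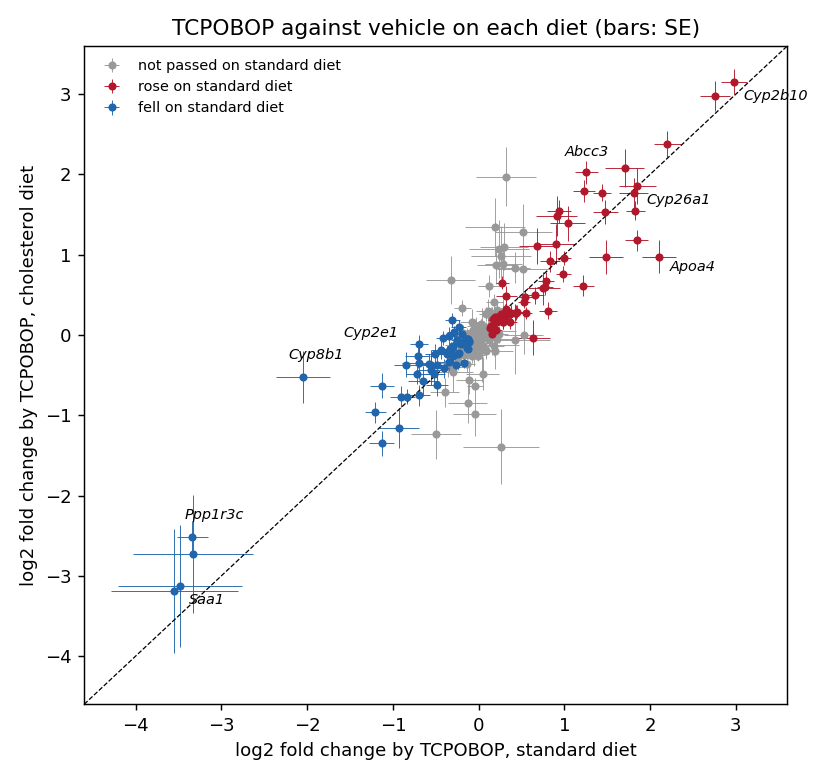
Log2 fold change by TCPOBOP on standard diet (x axis) against cholesterol diet (y axis) for 277 genes, with standard errors as bars and a dashed line of equal response. Cyp2b10 and Saa1 lie near the line, Apoa4 and Abcc3 to either side of it, and Cyp8b1 nearer to 0 on the cholesterol diet.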

How the data were processed

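The authors deposited the scanner output of each 2-colour Steroltalk v2 cDNA array, with the mean and the local background intensity of each spot in the Cy3 (liver) and Cy5 (reference) channel, before any normalization. The authors also deposited a table of log2 ratios, whose centring is not stated in the sources used here. Its 12 columns for these arrays correlated at 0.962 to 0.992 with the ratios computed here, had medians of -0.38 to 0.0045 and served as an alternative only, and 19 other columns were not used. Control spots (31 features) and 5 human probes were left out. Background was corrected with normexp (offset 50), ratios were normalized within each array by loess, spots of a probe were averaged, and of the 6 genes with several probes the brightest probe was kept. Of 284 probes, 224 were named by current symbol, 49 by a synonym and 11 only by the array's own name.

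Groups were compared in R 4.3.3 with limma 3.58.1 on 23 arrays of 4 groups (both diets), with Benjamini-Hochberg adjustment over 277 genes and a threshold of 0.05. The scripts were tested on simulated data. The number of arrays limits the precision. Same-numbered arrays of the groups did not deviate together for every number, so the numbers were not used as pairs. Members, gene lists and alternatives were chosen with earlier results of these data known. Named were the 15 largest rises and falls, all members of lists of up to 8 genes, and the 8 with the lowest p in longer lists. Some genes are not reported here.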

Additional observations from a re-analysis of the deposited data

Results flagged for a closer look

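Of 334 groups of 6 mice, 23 had a highest or lowest mouse whose gap to the next was above Dixon's critical value, where chance flags about 1 in 20 groups. TCPOBOP mouse 5 had 4 of these, as the highest for Cyp2a4 (1.78) and the lowest for Igf1 (-1.49), Cpt1a (-1.04) and Hc (-0.91). TCPOBOP mouse 1 was the highest for Pla2g6 (1.15) and the lowest for Gsk3b (-0.13). TCPOBOP mouse 2 was the highest for Cyp2d22 (0.21) and TCPOBOP mouse 3 the lowest for Creb1 (-0.14). Among vehicle mice, mouse 1 stood apart for Pla2g6 (-0.19), C4 (0.69) and Insig1 (-0.91). Vehicle mouse 2 did so for Cyp2c40 (0.30), Sqle (0.69) and Mlxipl (-0.81), and mouse 4 for Jun (-0.43) and Hnf4a (-0.19). Vehicle mouse 5 was apart for Saa3 (1.56), Orm1 (0.50), Cyp4b1 (-0.21) and Cry2 (-0.14), and mouse 6 for Cyp1a1 (-0.18), Scd1 (-1.76) and Ucp2 (-0.80). These are levels as log2 ratios to the reference pool, and the cause of each gap was not tested.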

How the results depend on the processing

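The count of 120 changed genes (61 higher, 59 lower) fell to 57 (36 higher, 21 lower) with loess on the spikes, where 63.2% of calls were higher against 50.8%. With the deposited log ratios, in which 197 genes could be tested, it was 74 (34 higher, 40 lower), and within the mice in micrometres it was 33 (25 higher, 8 lower), 75.8% of them higher, with 2 mice per group. Within the mice in millimetres 82 genes changed, 36 of them lower. Genes whose groups did not overlap numbered 40 with loess on the spikes and 44 with the deposited ratios, both tried after seeing the data. Genes whose response differed between diets numbered 6 with dim genes left out. The other alternatives for the changed genes kept each count within 1.5 times, and without any 1 mouse 109 to 118 genes changed, 56 to 61 of them higher and 50 to 58 lower. The replicate block gave 127 changed genes, 118 of them shared. The correlation of deviations between same-numbered arrays was -0.32 to 0.42 (median 0.13, against 0.013 for other numbers), and 3 of 6 vehicle arrays correlated best with the TCPOBOP array of their own number, a hint from the data and not from the design. The numbers were not taken as pairs. The methods' t-test gave 145 genes at the study's own threshold and 123 after Benjamini-Hochberg. With the deposited ratios Mbtps2 was at -0.37 and Cyp24a1 at -0.21, opposite to their directions here, and the cause was not tested. Of 98 named genes past the threshold, 27 were past it in every alternative. Signal limits the 52 genes below background on all 12 arrays, 7 of which passed the test.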
